A study of Mus musculus with 9 samples.

Results

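The genes described here are 336 protein-coding and other genes of mouse chromosome 12 whose RNA was measured in RAW264 cells and in 2 Zscan10-mutated clones of that line. A gene was taken if the deposited table places it first on chromosome 12 and if its normalised value reached 10 in at least 3 of the 9 libraries. Ribosomal protein genes (4 genes) and Fos, Npc2, Ltbp2, Jdp2, Rsad2, Cmpk2 and Rrm2 were set aside from the 347 chromosome 12 genes that passed, which leaves 336 of the 9564 genes that passed over the whole genome and of the 23420 listed. The other 452 of the 799 listed chromosome 12 genes stayed below that minimum, 334 of them with no read in any library. The chromosome was chosen because its genes were shifted in these same comparisons, so every change over the members below is a description and carries no test of the shift.

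KO #1 and KO #2 are clones carrying a Cas9-induced mutation of Zscan10, which encodes a zinc finger protein, in exon 2 for KO #1 and in exon 5 for KO #2 per the sample characteristics, while the names of the raw reads carry the opposite clone numbers. Vectors carrying Cas9, the guide and ZsGreen1 were electroporated, and single cells were sorted by fluorescence, so each knockout group is 1 clone. Control is RAW264, an established mouse line with macrophage traits whose cells fuse into bone-resorbing osteoclasts under the cytokine RANKL, which no culture here received. The labels say neither whether Control was also grown from a single cell nor whether libraries within a group came from different cultures, so the spread between libraries may be technical.

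A chromosome carries genes of unrelated function side by side, and cultured lines often hold unequal numbers of copies of their chromosomes. Where the number of copies differs between cells, the RNA of most genes on the chromosome tends to follow it, while single genes can be buffered or be set by their own promoters. Mouse chromosome 12 holds genes as different as Hsp90aa1, a cytosolic chaperone, Akt1, a survival kinase, Dicer1, the nuclease that matures microRNAs, and Traf3, an adaptor of immune receptors. The files hold RNA only: chromosome copies, and with them gene dosage, were not measured.

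The RNA of a gene starts at its promoter, and 272 of the 336 members have a promoter of 300 bases (250 before and 50 after the start) in RefSeq's GRCm38.p6 tables. The promoters of Pxdn (low in KO #1), Flrt2 (high in both clones), Zfp36l1 and Evl (both low in KO #2) are printed because the RNA of these genes departed from the rest of the chromosome. They lie, in this order, at chr12:29937786-29938085 on the plus strand, chr12:95691976-95692275 on the plus strand, chr12:80112964-80113263 on the minus strand and chr12:108554470-108554769 on the plus strand of GRCm38.p6, and each is written 5′ to 3′ on the strand of its gene. Capitals mark matches to any of 3 motifs, searched on both strands.
Pxdn: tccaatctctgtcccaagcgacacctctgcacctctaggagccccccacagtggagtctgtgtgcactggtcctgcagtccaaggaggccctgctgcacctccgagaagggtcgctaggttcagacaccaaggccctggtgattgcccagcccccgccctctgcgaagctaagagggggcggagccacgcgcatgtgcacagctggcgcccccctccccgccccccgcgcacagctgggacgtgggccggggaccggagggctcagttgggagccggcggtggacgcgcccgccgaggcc
Flrt2: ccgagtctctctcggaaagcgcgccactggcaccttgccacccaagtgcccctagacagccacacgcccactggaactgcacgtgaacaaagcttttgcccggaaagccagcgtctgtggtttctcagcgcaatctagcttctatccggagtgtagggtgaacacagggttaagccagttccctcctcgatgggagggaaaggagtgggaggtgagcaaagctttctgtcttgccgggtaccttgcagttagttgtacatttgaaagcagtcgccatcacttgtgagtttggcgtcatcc
Zfp36l1: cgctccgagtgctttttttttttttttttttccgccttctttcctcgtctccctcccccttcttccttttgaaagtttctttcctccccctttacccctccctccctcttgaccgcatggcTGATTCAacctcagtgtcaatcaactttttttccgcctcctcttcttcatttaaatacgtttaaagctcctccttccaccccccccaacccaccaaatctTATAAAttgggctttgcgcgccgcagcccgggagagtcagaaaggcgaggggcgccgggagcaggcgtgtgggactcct
Evl: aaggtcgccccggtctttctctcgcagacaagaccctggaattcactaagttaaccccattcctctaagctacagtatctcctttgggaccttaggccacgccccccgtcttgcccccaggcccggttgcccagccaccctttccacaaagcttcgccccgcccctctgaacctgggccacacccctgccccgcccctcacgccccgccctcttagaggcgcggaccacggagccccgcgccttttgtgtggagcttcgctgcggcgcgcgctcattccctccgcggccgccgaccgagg

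The motifs were GAAANNGAAA, the core of interferon-stimulated response elements, TGANTCA, the site of AP-1 factors, and TATAAA, the TATA box. The Zfp36l1 promoter held 1 TGANTCA, starting 129 bases before the gene's start, and 1 TATAAA, starting 29 bases before it, and the other 3 windows held none of the 3 motifs. Among member promoters 2.57% held GAAANNGAAA (7 of 272), against 3.45% of all 32534 promoters in the table. TGANTCA was in 5.88% of member promoters (16 of 272), against 7.79% of all promoters, and TATAAA in 4.41% (12 of 272), against 13.6%. The motifs can overlap one another, and the whole table includes genes that were not detected in these cells. Each member entered with 1 promoter, the one nearest its start, while a gene could have several in the table. Member promoters also held a median of 24 CG pairs, against 7 over all promoters. The sets thus differ in kind, and the part of this in the motif shares was not tested.

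Each library had between 1821703 and 2458539 reads assigned to genes, as recovered from the deposited values, and the sequenced depth was not available. Values are given as normalised reads, the authors' gene counts divided by 1 size factor per library. Changes are differences in log2(value + 1) with their SE, a scale on which genes with few reads change less than their true fold, and a gene is said to have risen or fallen where limma's moderated test over the 9564 genes gave a Benjamini-Hochberg adjusted p under 0.05. Libraries of 1 group differed little beyond counting error, with a chi-square per degree of freedom of 1.06 to 1.32 over genes. Macrophage markers were present in every library, with 9 of 9 found in the table passing the minimum and a summed level of 41737 to 42832 normalised reads in KO #1, 37666 to 39093 in KO #2 and 28845 to 29901 in Control. Osteoclast markers summed to 21.6 to 33.9 in KO #1, 71.7 to 78.3 in KO #2 and 20.98 to 26.2 in Control, with Calcr at 0 and 2 of 7 (Acp5 and Dcstamp) passing, and no marker of fibroblasts, T cells, B cells, epithelium or neutrophils passed. The part of these levels in the chromosome 12 values was not tested.

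Reads from the 336 genes made up a smaller share of the RNA in KO #1 and a larger share in KO #2 than in Control. The share was 2.66%, 2.64% and 2.65% of reads in the 3 KO #1 libraries, 3.81%, 3.83% and 3.83% in the KO #2 libraries and 3.15%, 3.19% and 3.198% in the Control libraries. The Wilson 95% intervals, which cover counting error only, reached from 2.62% to 2.68% over KO #1, from 3.79% to 3.86% over KO #2 and from 3.13% to 3.22% over Control, so the 3 groups did not overlap. In bulk RNA, fewer cells that express a gene and less of its RNA per cell cannot be told apart.

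**Figure D1:**
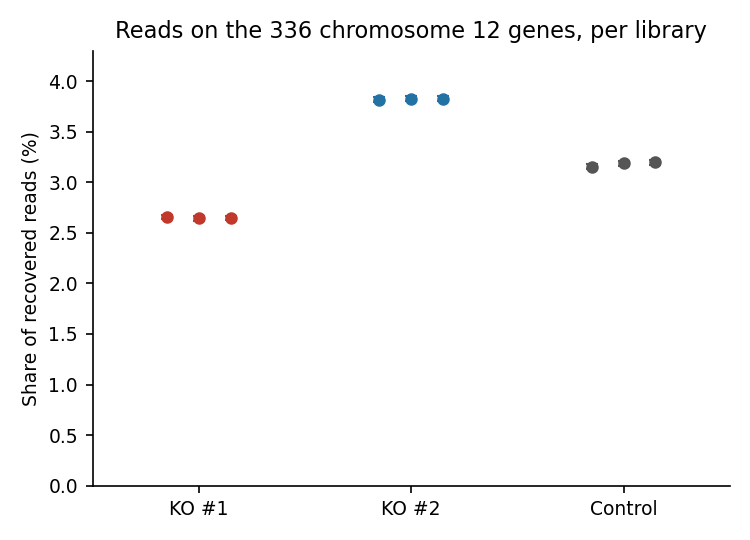
Share of recovered reads on the 336 chromosome 12 genes (y axis, percent, from 0) in each library of KO #1, KO #2 and Control (x axis). Points are libraries and bars are Wilson 95% intervals of counting error; the KO #1 libraries lie at 2.64% to 2.66%, the KO #2 libraries at 3.81% to 3.83% and the Control libraries at 3.15% to 3.198%.

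In KO #1 most chromosome 12 genes were lower than in Control, by a median of -0.28 on the log2 scale, or 1.22-fold lower. The median was -0.25, -0.27 and -0.29 when each KO #1 library was set by itself against the Control mean. Of the 336 genes, 292 (86.9%) had a change below 0, whereas 50.2% of the 9217 tested genes on other chromosomes did, with a median of -0.0004. The quartiles of the members were -0.42 and -0.14, an interquartile range of 0.27, beside 0.29 for the genes of other chromosomes. In limma's test 148 members fell and 11 rose, while 10.2% of all tested genes fell and 10.5% rose, and 177 members passed in neither direction. The members were chosen on this contrast, so nothing is read from these counts.

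In KO #2 most of the same genes were higher than in Control, by a median of 0.28, or 1.21-fold. The median was 0.28, 0.29 and 0.29 for the 3 KO #2 libraries set singly against the Control mean. A change above 0 was found for 286 members (85.1%), the quartiles were 0.13 and 0.43, and the interquartile range was 0.30, as it was for the genes of other chromosomes, whose median was -0.015. In limma's test 150 members rose and 11 fell, while 10.7% of all tested genes rose and 11.8% fell, and 175 passed in neither direction. Both comparisons use the same 3 Control libraries, so their values are set side by side and are not independent.

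Set directly against KO #2, KO #1 was lower for 317 of the 336 genes (94.3%). The median was -0.57, or 1.48-fold lower in KO #1, against 0.0076 for the genes of other chromosomes. In limma's test 255 members were lower in KO #1 and 8 were higher, while 12.9% of all tested genes were lower and 13.5% higher, and 73 passed in neither direction. In each comparison about the same share of members lay within 0.25 of the member median: 68.5% (230) for KO #1 against Control, 67.9% (228) for KO #2 against Control and 67.0% (225) for KO #1 against KO #2. Genes of other chromosomes were spread about as widely around their own median. For KO #1 against KO #2 the interquartile range was 0.31 for the members and 0.33 for them. These shares thus describe a common width and no trait of the members.

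**Figure D2:**
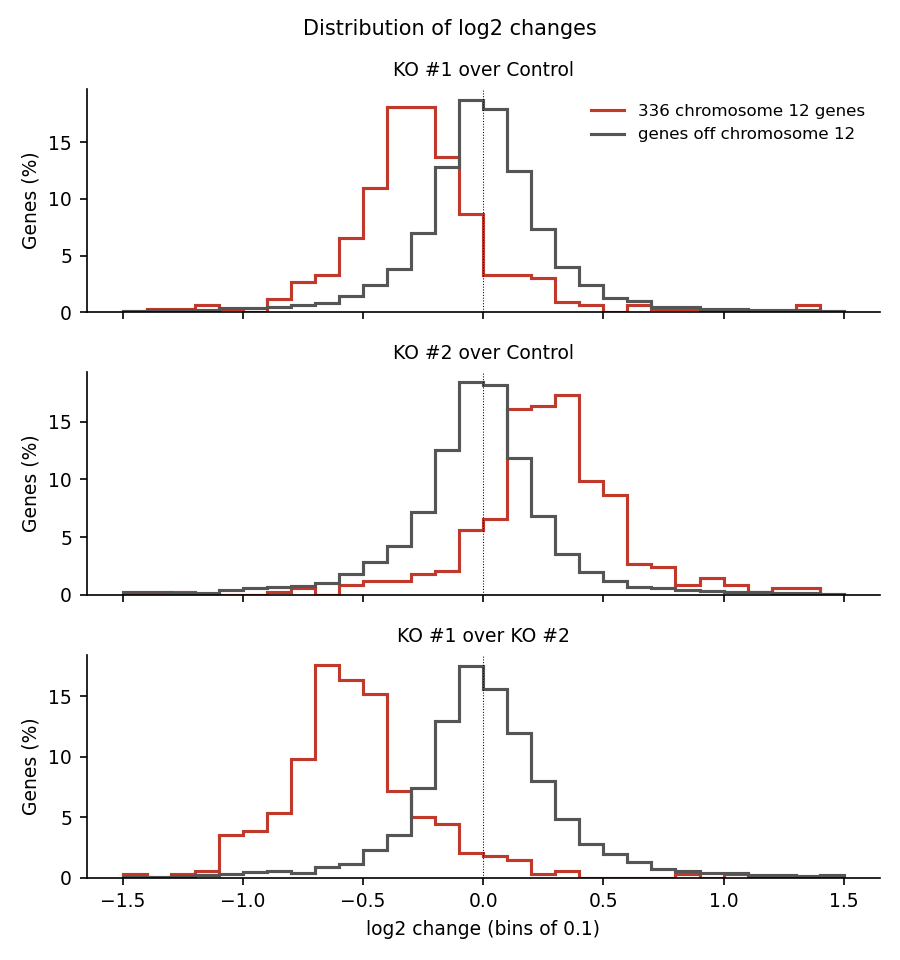
Distribution of log2 changes (x axis, bins of 0.1 between -1.5 and 1.5) as percent of genes (y axis) for the 336 chromosome 12 genes and for the 9217 tested genes of other chromosomes, in KO #1 over Control, KO #2 over Control and KO #1 over KO #2. The whole distribution of the chromosome 12 genes is displaced, to a median of -0.28, 0.28 and -0.57 in this order, with a width like that of the other genes; at most 3.57% of a group's genes fall outside the bins drawn.

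None of the 19 other chromosomes with at least 20 tested genes was displaced to this degree. Over them the median log2 change ran from -0.044 on chromosome 16 to 0.022 on chromosome 19 for KO #1 against Control. For KO #2 against Control it ran from -0.036 on chromosome 1 to 0.0044 on the X chromosome, and for KO #1 against KO #2 from -0.028 on chromosome 16 to 0.034 on chromosome 17. The Y chromosome, with only 4 tested genes, had medians of -0.52, -0.031 and -0.50 in the 3 comparisons and is left out of these ranges. The median over all tested genes was -0.0066, -0.0087 and -0.0028 in the 3 comparisons, and the scaling of the values by library sets it near 0 by construction.

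**Figure D3:**
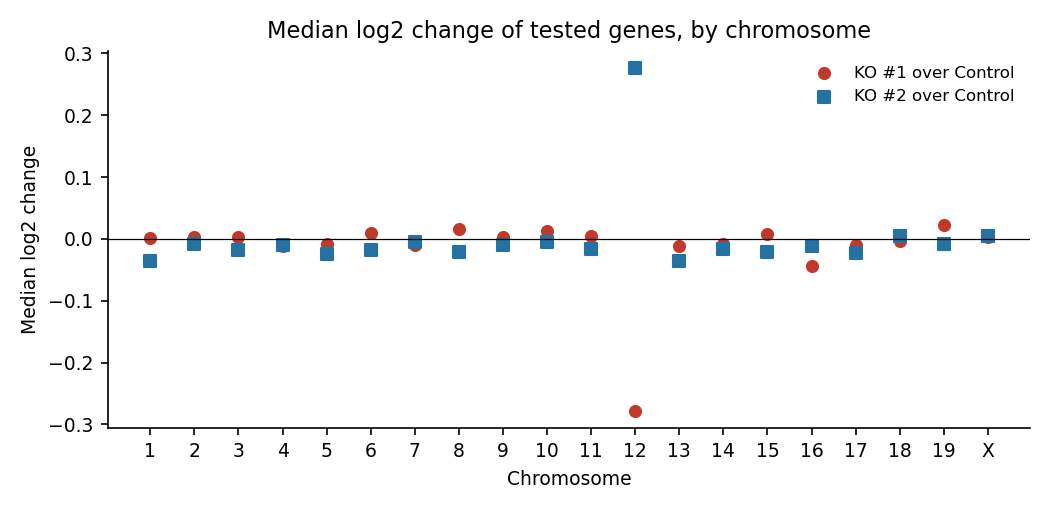
Median log2 change of the tested genes of each chromosome (y axis) by chromosome (x axis), for KO #1 over Control (circles) and KO #2 over Control (squares), with all 347 tested genes standing for chromosome 12. Chromosome 12 lies at -0.28 in KO #1 and at 0.28 in KO #2, and the other chromosomes drawn, those with at least 20 tested genes, lie between -0.044 and 0.022.

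The displacement ran along the whole measured length of the chromosome, from the first member start at base 3235791 to the last member end at base 118301440 (mm10). In windows of 10 Mb, the 8 windows with at least 20 members had medians of -0.31 to -0.24 for KO #1 against Control and of 0.23 to 0.32 for KO #2 against Control. For KO #1 against KO #2 the medians of these windows were -0.64 to -0.52. All 12 windows had a median below 0 in KO #1 and above 0 in KO #2, with -0.12 in KO #1 as the value nearest to 0, in the window from 40 to 50 Mb, which held only 7 members. With windows of 20 Mb, which held 35 to 83 members each, the medians ran from -0.31 to -0.26 in KO #1 and from 0.23 to 0.32 in KO #2.

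**Figure D4:**
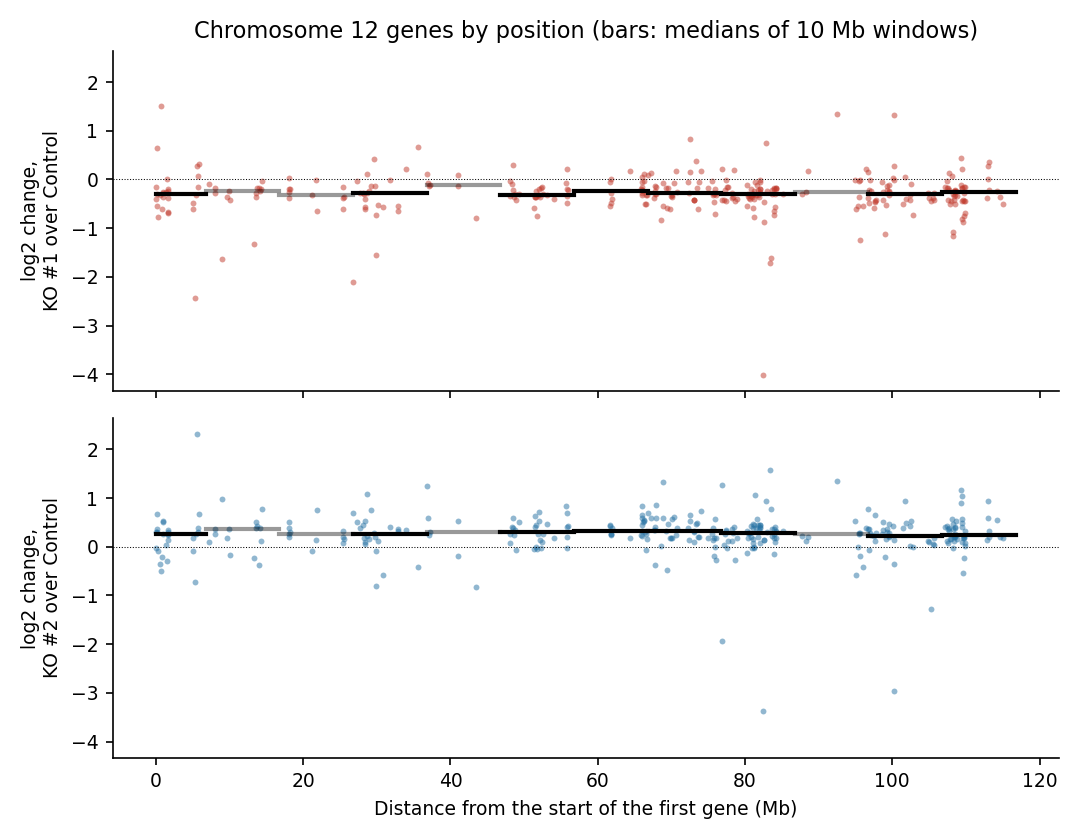
Log2 change of each of the 336 genes against the distance of its start from the start of the first gene (x axis, Mb), KO #1 over Control above and KO #2 over Control below. Points are genes and bars are medians of 10 Mb windows, black where the window holds at least 20 genes and grey where it holds fewer; the black bars stay between -0.31 and -0.24 above and between 0.23 and 0.32 below.

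The median was similar over levels of abundance and on both strands, more of the abundant members passed the test, and the few members that are not protein coding had medians nearer to 0. The 112 least abundant, 112 middle and 112 most abundant members had medians of -0.32, -0.26 and -0.27 in KO #1 against Control. In KO #2 against Control the same groups had medians of 0.26, 0.28 and 0.29. The test called 27, 40 and 81 of them lower in KO #1, and 21, 49 and 80 higher in KO #2. Members on the plus strand (185) and on the minus strand (151) had medians of -0.28 and -0.28 in KO #1, and of 0.28 and 0.28 in KO #2. The 307 members that GENCODE M21 lists as protein coding had medians of -0.27 and 0.29, and the 7 of another type had -0.054 in KO #1 and 0.18 in KO #2. For KO #1 against KO #2 the medians were -0.57 for the protein-coding members and 0.0024 for those of another type.

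The chromosome 12 genes that did not reach the minimum were not examined singly. Together these 452 genes had 165, 191 and 187 reads in KO #1 (78.0, 87.1 and 86.6 CPM, reads scaled to the library total), 241, 253 and 205 in KO #2 (105, 115 and 113 CPM) and 286, 264 and 222 in Control (116, 122 and 109 CPM). Their sum was thus lowest in KO #1 as well, while KO #2 and Control overlapped. Of 7 genes listed for the imprinted Dlk1 to Dio3 region, a cluster expressed from a single parental copy in many embryonic tissues, 0 reached the minimum.

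The genes were also read by function, through 11 lists with at least 6 members that together hold 188 of the 336. Over all lists the median was -0.28 in KO #1 and 0.29 in KO #2, and over the 148 members in no list it was -0.27 and 0.26. The lists were drawn up from known functions of chromosome 12 genes with earlier results of these data known. The counts of each list stand beside 44.0% of the members lower in KO #1 and 44.6% higher in KO #2, and beside 10.2% and 10.7% of all tested genes. In the other direction went 3.27% of the members in KO #1 and 3.27% in KO #2. Over all tested genes 10.5% were higher in KO #1 and 11.8% lower in KO #2. A list with counts near the shares of the members, in either direction, thus shows no trait of its own.

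Most translation factors were lower in KO #1 and higher in KO #2 than in Control. Eif5, which triggers GTP hydrolysis in the scanning ribosome, had 834, 786 and 817 normalised reads in KO #1, 1428, 1385 and 1335 in KO #2 and 1019, 997 and 998 in Control. The 3 groups did not overlap, and Eif5 changed by -0.31 ± 0.042 in KO #1 and by 0.46 ± 0.042 in KO #2. Eif2s1, the alpha subunit of initiation factor eIF2 whose phosphorylation slows translation under stress, had 637, 631 and 637 normalised reads in KO #1, 1075, 974 and 1005 in KO #2 and 781, 769 and 772 in Control. It fell by 0.28 ± 0.046 in KO #1 and rose by 0.39 ± 0.046 in KO #2. Bzw2, an Eif5-like regulator, had the larger fall of the 3 in KO #1 (-0.54 ± 0.054) and rose by 0.33 ± 0.054 in KO #2. Of the 6 members of this list 4 fell in KO #1 and 4 rose in KO #2, with medians of -0.30 and 0.36. The signal recognition genes Srp54a, Srp54b and Srp54c are near-identical copies, and reads may have been split between them, so their single values are uncertain.

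RNA processing genes followed the chromosome as well. Dicer1, which cuts microRNA precursors, had 229.8, 227 and 229 normalised reads in KO #1, 385, 443 and 438 in KO #2 and 318, 311 and 341 in Control. All 3 KO #1 libraries lay below and all 3 KO #2 libraries above the Control range, with changes of -0.50 ± 0.067 and 0.38 ± 0.067. Erh, a small nuclear protein of RNA decay and splicing complexes, had 581, 597 and 605 normalised reads in KO #1, 1072, 1032 and 995 in KO #2 and 788, 845 and 796 in Control. It fell by 0.45 ± 0.046 in KO #1 and rose by 0.35 ± 0.046 in KO #2. Papola, the canonical poly(A) polymerase, had 878, 949 and 923 normalised reads in KO #1, 1402, 1464 and 1348 in KO #2 and 1002, 957 and 967 in Control. Its KO #1 and Control libraries did not overlap, but its change of -0.09 ± 0.042 did not pass the test, whereas it rose by 0.53 ± 0.042 in KO #2. Pum2, an RNA-binding repressor of mRNAs, changed by -0.32 ± 0.048 and 0.27 ± 0.048. Of 20 members 14 fell and 1 rose in KO #1, and 12 rose and 1 fell in KO #2. The exceptions were Ddx24, a DEAD-box RNA helicase that rose by 0.28 ± 0.052 in KO #1, and Zfp36l1, described below, which fell in KO #2.

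Hsp90aa1, the inducible form of the cytosolic chaperone HSP90, was the most abundant of the 336 genes and also the highest per length (1190 mean normalised reads per kb). It had 2734, 2794 and 2828 normalised reads in KO #1, 4385, 4167 and 4147 in KO #2 and 3113, 3198 and 3159 in Control. The groups did not overlap, with a fall of 0.18 ± 0.029 in KO #1 and a rise of 0.42 ± 0.029 in KO #2. Pdia6, a disulfide isomerase of the endoplasmic reticulum and the next per length (1007 per kb), went against the median in KO #2. It had 2115, 2080.2 and 2201 normalised reads in KO #1, 1872, 1879 and 1863 in KO #2 and 2463, 2360.5 and 2428 in Control, and thus fell in both clones, with changes of -0.18 ± 0.033 in KO #1 and -0.37 ± 0.033 in KO #2. Tmed10, a cargo receptor of early secretory vesicles, fell by 0.19 in KO #1 and rose by 0.38 in KO #2. Sel1l, a partner of the ubiquitin ligase that clears misfolded proteins from the reticulum, rose in both clones, by 0.17 ± 0.057 and 0.20 ± 0.057. Of 13 chaperone and reticulum genes 7 fell and 1 rose in KO #1, and 9 rose and 1 fell in KO #2.

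Proteasome and ubiquitin genes had a median of -0.24 in KO #1 and 0.34 in KO #2, where 7 of 11 fell and 6 of 11 rose, with none in the other direction, while 10.2% of all tested genes fell in KO #1 and 10.7% rose in KO #2. Psma6, an alpha subunit of the proteasome core, had 576, 545 and 549 normalised reads in KO #1, 767, 797 and 794 in KO #2 and 724, 687 and 729 in Control. It fell by 0.36 in KO #1 and rose by 0.14 in KO #2. Psmc1, an ATPase of the proteasome cap, changed by -0.21 ± 0.049 and 0.36 ± 0.049.

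Of 24 genes of mitochondria and metabolism 15 fell and 2 rose in KO #1, and 12 rose and none fell in KO #2. Dlst, the succinyltransferase of the oxoglutarate dehydrogenase complex, had 546, 519 and 576 normalised reads in KO #1, 930.3, 848 and 900.4 in KO #2 and 673, 732 and 696 in Control. Dld, the dehydrogenase that this complex shares with pyruvate dehydrogenase, had 416, 372 and 429.8 normalised reads in KO #1, 665, 638 and 706 in KO #2 and 454, 503 and 511 in Control. Both genes were lowest in KO #1 and highest in KO #2 with no overlap between groups, at -0.35 ± 0.05 and 0.35 ± 0.05 for Dlst and -0.27 ± 0.058 and 0.45 ± 0.058 for Dld. Odc1, which makes putrescine in polyamine synthesis, fell by 0.19 in KO #1 and rose by 0.12 in KO #2. Nampt, the rate-limiting enzyme of NAD salvage, and Adssl1, an adenylosuccinate synthase, were the 2 that rose in KO #1. Nampt had 466, 431 and 445 normalised reads in KO #1, 391, 399 and 433 in KO #2 and 317, 344 and 337 in Control, higher in both clones than in Control.

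Lysosome and endosome genes had a median of -0.24 in KO #1, where 7 of 19 fell, and of 0.33 in KO #2, where 12 of 19 rose. Lgmn, the lysosomal endopeptidase legumain, had 751, 764 and 791 normalised reads in KO #1, 1207, 1258 and 1252 in KO #2 and 1088, 1089 and 1147 in Control. It fell by 0.53 in KO #1, more than the chromosome median, and rose by 0.16 in KO #2, less than that median. Galc, the lysosomal galactosylceramidase, had 69.1, 64.9 and 78.2 normalised reads in KO #1, 98.1, 107 and 103 in KO #2 and 68.0, 67.8 and 76.6 in Control. Its change of -0.0033 ± 0.13 in KO #1 did not pass the test and its libraries overlapped those of Control, whereas it rose by 0.53 ± 0.13 in KO #2. Pld4, an endolysosomal nuclease, changed by -0.44 ± 0.056 and 0.41 ± 0.056, and Arf6, a GTPase of endocytic recycling, by -0.24 ± 0.059 and 0.51 ± 0.059.

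Kinases and phosphatases had a median of -0.18 in KO #1 and of 0.39 in KO #2. Akt1, the kinase downstream of phosphoinositide signalling, had 666, 753 and 685 normalised reads in KO #1, 1119.9, 1108 and 1075 in KO #2 and 790.4, 774 and 805 in Control. It fell by 0.17 ± 0.046 in KO #1 and rose by 0.48 ± 0.046 in KO #2. Nek9, a mitotic kinase, had 577, 599 and 556 normalised reads in KO #1, 789, 750.1 and 766 in KO #2 and 587, 569 and 577 in Control, so that KO #1 overlapped Control and KO #2 did not. Of 22 members 11 fell in KO #1 and 16 rose in KO #2, and none went the other way.

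Transcription factors and chromatin genes included several that were lower than Control in both clones. Dnmt3a, a de novo DNA methyltransferase, had 528, 526 and 474 normalised reads in KO #1, 488, 502 and 506 in KO #2 and 653, 655 and 603 in Control. The libraries of the clones overlapped each other and lay below all Control libraries, with changes of -0.32 ± 0.054 in KO #1 and -0.35 ± 0.054 in KO #2. Hdac9, a class II histone deacetylase, had 68.0, 76.9 and 80.3 normalised reads in KO #1, 72.6, 71.7 and 79.1 in KO #2 and 112, 114 and 108 in Control, again below Control in both clones. Mycn, a MYC family factor, and Baz1a, a chromatin remodelling subunit, instead followed the chromosome, at -0.37 ± 0.052 and 0.18 ± 0.052 for Mycn and -0.24 ± 0.05 and 0.45 ± 0.05 for Baz1a. Hif1a, the oxygen-regulated factor that drives glycolytic genes, had 436, 376 and 404 normalised reads in KO #1, 392.5, 439 and 451 in KO #2 and 342, 339.7 and 402 in Control. Its change of 0.17 ± 0.066 in KO #1 did not pass the test and it rose by 0.24 ± 0.066 in KO #2. Of 30 members 15 fell and 1 rose in KO #1, and 11 rose and 4 fell in KO #2. Those that fell include Batf in both clones, which passed the minimum only through Control, so that its falls were built into its selection.

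Among 18 genes of replication, repair and mitosis 7 fell in KO #1 and 5 rose in KO #2, with none the other way, while over all tested genes 10.2% fell in KO #1 and 10.7% rose in KO #2. Ncapg2, a subunit of condensin II, changed by -0.21 ± 0.059 in KO #1 and 0.32 ± 0.059 in KO #2. Cdca4, a cell division cycle associated gene, fell by 0.42 ± 0.075 in KO #1, and its change of 0.17 ± 0.075 in KO #2 did not pass.

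Cytoskeletal genes held members that followed the chromosome beside members that did not. Dync1h1, the heavy chain of cytoplasmic dynein, had 1322, 1362 and 1359 normalised reads in KO #1, 1487, 1510.0 and 1541 in KO #2 and 1356, 1374 and 1428 in Control, with a change of -0.04 ± 0.037 in KO #1 that did not pass and a rise of 0.13 ± 0.037 in KO #2. Rock2, a kinase of actomyosin contraction, changed by -0.28 ± 0.063 and 0.38 ± 0.063. Nin, a centrosomal anchor of microtubules, changed by 0.087 ± 0.057, which did not pass, and rose by 0.70 ± 0.057. Actn1, an actin crosslinker, had 157, 183 and 167 normalised reads in KO #1, 365, 350.5 and 338 in KO #2 and 144, 155 and 134 in Control, and rose in both clones, by 0.22 ± 0.082 in KO #1 and 1.28 ± 0.082 in KO #2. Of 19 members 9 fell and 3 rose in KO #1, and 10 rose and 1 fell in KO #2.

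Innate immunity genes were the list with the smallest median in KO #2, at 0.089, where 3 of 13 rose and 3 fell, beside 10.7% and 11.8% of all tested genes. In KO #1 their median was -0.24, with 5 lower and 1 higher, beside 10.2% and 10.5% of all tested genes. Batf, described below, counts among those lower in each clone. It passed the minimum only through Control, so that its falls were built into its selection. Traf3, an adaptor that restrains noncanonical NF-κB signalling, had 189, 178 and 192 normalised reads in KO #1, 294, 300.4 and 258 in KO #2 and 256, 245 and 260.2 in Control. It fell by 0.45 ± 0.076 in KO #1, and its change of 0.16 ± 0.076 in KO #2 did not pass. Nfkbia, the inhibitor IκBα that is itself induced by NF-κB, had 235, 235 and 245 normalised reads in KO #1, 265, 259 and 269 in KO #2 and 264, 273 and 269.6 in Control. It passed in none of the 3 comparisons, and its KO #2 libraries overlapped those of Control. Tnfaip2, a gene induced by tumour necrosis factor, had 171, 192 and 163 normalised reads in KO #1, 375, 347 and 368 in KO #2 and 380.4, 378 and 352 in Control. It fell by 1.08 ± 0.071 in KO #1, further than the chromosome, and overlapped Control in KO #2. Adam17, the protease that sheds tumour necrosis factor, passed in KO #2 (0.26 ± 0.049) and did not in KO #1 (0.022 ± 0.049). Pik3cg, the leukocyte phosphoinositide kinase, fell by 0.24 in KO #1 and had a change of 0.16 ± 0.07 in KO #2 that did not pass.

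Some members lay far from the chromosome median. A departure of at least 1 on the log2 scale from the member median was found for 13 members in KO #1 against Control (5 above and 8 below), for 11 in KO #2 against Control (4 above and 7 below) and for 13 in KO #1 against KO #2 (5 above and 8 below). Genes of other chromosomes had large changes too. In these comparisons, in the same order, 2.02%, 2.05% and 2.34% of them lay outside the range from -1.5 to 1.5. Of the members, 2.38%, 1.49% and 3.57% lay outside that range, which is not centred on their medians. Further genes of other chromosomes lay inside that range with changes of more than 1 in size. The shares outside the range thus understate how many of the other genes departed by at least 1. They cannot be set against the counts above, which describe no trait of the members. Departing members with a mean of at least 20 normalised reads in the higher group and groups that do not overlap are described next.

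Ifi27l2a, a small membrane protein induced by interferon, departed most between the clones. Located at chr12:103442167-103443680, minus strand, it had 173, 167 and 210.3 normalised reads in KO #1, 5.66, 12.8 and 8.26 in KO #2 and 61.9, 76.6 and 79.7 in Control. The 3 groups did not overlap, and against the chromosome it was highest in KO #1 and lowest in KO #2. It rose by 1.32 ± 0.19 in KO #1 and fell by 2.95 ± 0.19 in KO #2, so that KO #1 exceeded KO #2 by 4.28 ± 0.19. Its close relative Ifi27l1 lies 1.92 kb away on the other strand and had 269, 264 and 277 normalised reads in KO #1, 234, 199 and 211 in KO #2 and 286, 260.2 and 273 in Control. Ifi27l1 passed in KO #2, where it fell by 0.35 ± 0.074, and did not in KO #1 (-0.015 ± 0.074). The sequences of this family are alike, and a share of reads could have been placed on either, so single values are uncertain. The next member on the other side, Dicer1, lies 1244 kb away and followed the chromosome.

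Pxdn, which encodes peroxidasin, a secreted haem peroxidase that crosslinks collagen IV, departed downward in KO #1. At chr12:29938036-30017658, plus strand, it had 67.0, 54.9 and 61.0 normalised reads in KO #1, 412, 442 and 425 in KO #2 and 252, 274 and 269 in Control. It fell by 2.11 ± 0.085 in KO #1, where its mean was 61.0 ± 6.05 normalised reads, against 265 ± 11.4 in Control (SD, n = 3 each). In KO #2 it rose by 0.68 ± 0.085, 0.41 above the chromosome median. Of its nearest members, Tssc1, 1071 kb before it, had a change of -0.35 ± 0.16 in KO #1 and Tmem18, 567 kb after it, one of -0.038 ± 0.13, and neither passed.

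Flrt2, a leucine-rich repeat receptor of cell guidance and adhesion, was higher in both clones than in Control. At chr12:95692226-95785213, plus strand, it had 140.2, 122.8 and 141 normalised reads in KO #1, 135, 147 and 129 in KO #2 and 50.6, 50.1 and 57.7 in Control. The clones overlapped each other and lay above all Control libraries. It rose by 1.34 ± 0.12 in KO #1 and by 1.36 ± 0.12 in KO #2, and the difference between the clones was -0.024 ± 0.12, which did not pass the test. The members nearest to it lie 3843 kb before (Sel1l) and 2417 kb after (Galc).

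Sdc1, syndecan-1, a heparan sulfate proteoglycan of the cell surface, was the furthest above the chromosome in KO #2. At chr12:8771396-8793687, plus strand, it had 23.7, 27.0 and 25.4 normalised reads in KO #1, 105, 109 and 112 in KO #2 and 20.9, 20.6 and 20.98 in Control. It rose by 2.33 ± 0.18 in KO #2, to a mean of 109 ± 3.71 normalised reads against 20.8 ± 0.197 in Control (SD, n = 3 each). Its KO #1 libraries also lay above those of Control, with a change of 0.27 ± 0.18 that did not pass. Pum2, 18.8 kb before it, and Laptm4a, 128 kb after it, rose by 0.27 ± 0.048 and 0.30 ± 0.066 in KO #2, close to the chromosome median. L3hypdh, an enzyme of hydroxyproline breakdown, had 12.4, 3.99 and 6.1 normalised reads in KO #1, 37.7, 29.5 and 18.9 in KO #2 and 11.3, 11.8 and 8.39 in Control and rose by 1.33 ± 0.32 in KO #2. Its neighbour Jkamp, 0.526 kb away, rose by 0.60 ± 0.13 there. Daam1, 81.1 kb away on the other side, had a change of 0.021 ± 0.17 in KO #2 that did not pass.

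Zfp36l1 and Evl were lower in KO #2, against the direction of the chromosome. Zfp36l1 binds AU-rich elements of mRNAs and promotes their decay; at chr12:80107760-80113013, minus strand, it had 44.3, 63.9 and 54.9 normalised reads in KO #1, 25.5, 24.5 and 9.44 in KO #2 and 67.2, 75.6 and 74.5 in Control. It fell by 1.93 ± 0.22 in KO #2, and its change of -0.42 ± 0.22 in KO #1 did not pass although the libraries lay below those of Control. Of the neighbours of Zfp36l1, Actn1, 54.5 kb away on the same strand, rose by 1.28 ± 0.082 in KO #2. Rad51b, 293 kb away on the other side, had a change of -0.28 ± 0.28 there that did not pass. Evl, an Ena/VASP protein that elongates actin filaments, lies at chr12:108554720-108688515, plus strand and had 74.2, 71.9 and 79.3 normalised reads in KO #1, 40.6, 51.1 and 34.2 in KO #2 and 105, 100.2 and 102 in Control. It fell in both clones, with changes of -0.44 ± 0.14 in KO #1 and -1.28 ± 0.14 in KO #2, while its neighbours Ccnk and Yy1 had changes of 0.099 ± 0.10 and 0.062 ± 0.09 in KO #2 that did not pass. Nova1, an RNA-binding splicing factor known from neurons, had 24.7, 17.0 and 4.06 normalised reads in KO #1, 15.1, 15.7 and 7.08 in KO #2 and 18.3, 21.6 and 27.3 in Control. Its KO #2 libraries lay below those of Control, but its change of -0.84 ± 0.35 did not pass, and the KO #1 libraries were widely spread. The change was -0.50 without the third KO #2 library. It was -0.29 on log2(FPKM + 1) of the authors' FPKM values, a scale whose sizes cannot be set against the main ones.

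Etv1, an ETS family transcription factor, lies at chr12:38780258-38868215, plus strand and was above Control in KO #1 and below it in KO #2. It had 173, 165 and 186 normalised reads in KO #1, 73.6, 100.1 and 73.2 in KO #2 and 101, 111 and 114 in Control. It rose by 0.68 ± 0.11 in KO #1 and fell by 0.41 ± 0.11 in KO #2, the reverse of the chromosome in both. Its nearest members, Agmo 1198 kb before and Arl4a 1165 kb after, both rose in KO #2, by 0.35 ± 0.12 and 1.24 ± 0.30.

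Efr3b, a membrane scaffold for a phosphatidylinositol kinase, lies at chr12:3962554-4038915, minus strand and was high in KO #1. It had 36.1, 32.9 and 42.7 normalised reads in KO #1, 5.66, 9.82 and 10.6 in KO #2 and 9.6, 10.8 and 17.8 in Control. It rose by 1.51 ± 0.29 in KO #1, whereas in KO #2 it overlapped Control, with -0.50 ± 0.29. On log2(FPKM + 1) of the authors' FPKM values the rise of Efr3b in KO #1 was 0.96, a size on another scale than the main one. The neighbours Dnmt3a, 48.1 kb before it, and Dnajc27, 43.7 kb after it, fell in KO #1. Ift43, a subunit of intraflagellar transport, had 15.5, 21.96 and 31.5 normalised reads in KO #1, 32.1, 26.5 and 18.9 in KO #2 and 13.1, 13.7 and 11.5 in Control and passed in both clones, by 0.75 ± 0.26 and 0.93 ± 0.26. It had few reads, and its call in KO #1 was lost under 9 of the other settings tried.

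Fam49a and Angel1 were further below the chromosome in KO #1 than most members. Fam49a, which binds the GTPase Rac1, had 5.15, 3.99 and 5.08 normalised reads in KO #1, 36.8, 27.5 and 37.8 in KO #2 and 15.7, 21.6 and 13.6 in Control at chr12:12262139-12376361, plus strand. It fell by 1.63 ± 0.29 in KO #1 and rose by 0.97 ± 0.29 in KO #2, while its neighbours Smc6 and Mycn stayed near the chromosome median, at -0.27 ± 0.061 and -0.37 ± 0.052 in KO #1. Angel1, a member of the CCR4 nuclease family, had 6.18, 3.99 and 4.06 normalised reads in KO #1, 24.5, 34.4 and 27.1 in KO #2 and 13.1, 20.6 and 15.7 in Control at chr12:86700502-86726460, minus strand. It fell by 1.60 ± 0.30 in KO #1, and its change of 0.77 ± 0.30 in KO #2 did not pass. Vash1, a tubulin carboxypeptidase, lies on the other strand 4.82 kb away and had 2.06, 0 and 2.03 normalised reads in KO #1, 23.6, 15.7 and 20.1 in KO #2 and 4.36, 4.91 and 9.44 in Control. It fell by 1.72 ± 0.42 in KO #1 and rose by 1.57 ± 0.42 in KO #2, and it passed the minimum only through KO #2, so that a difference was built into its selection. On the other side of Angel1, Irf2bpl lies 154 kb away. It passed in neither clone, at -0.22 ± 0.14 in KO #1 and 0.22 ± 0.14 in KO #2.

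**Figure D5:**
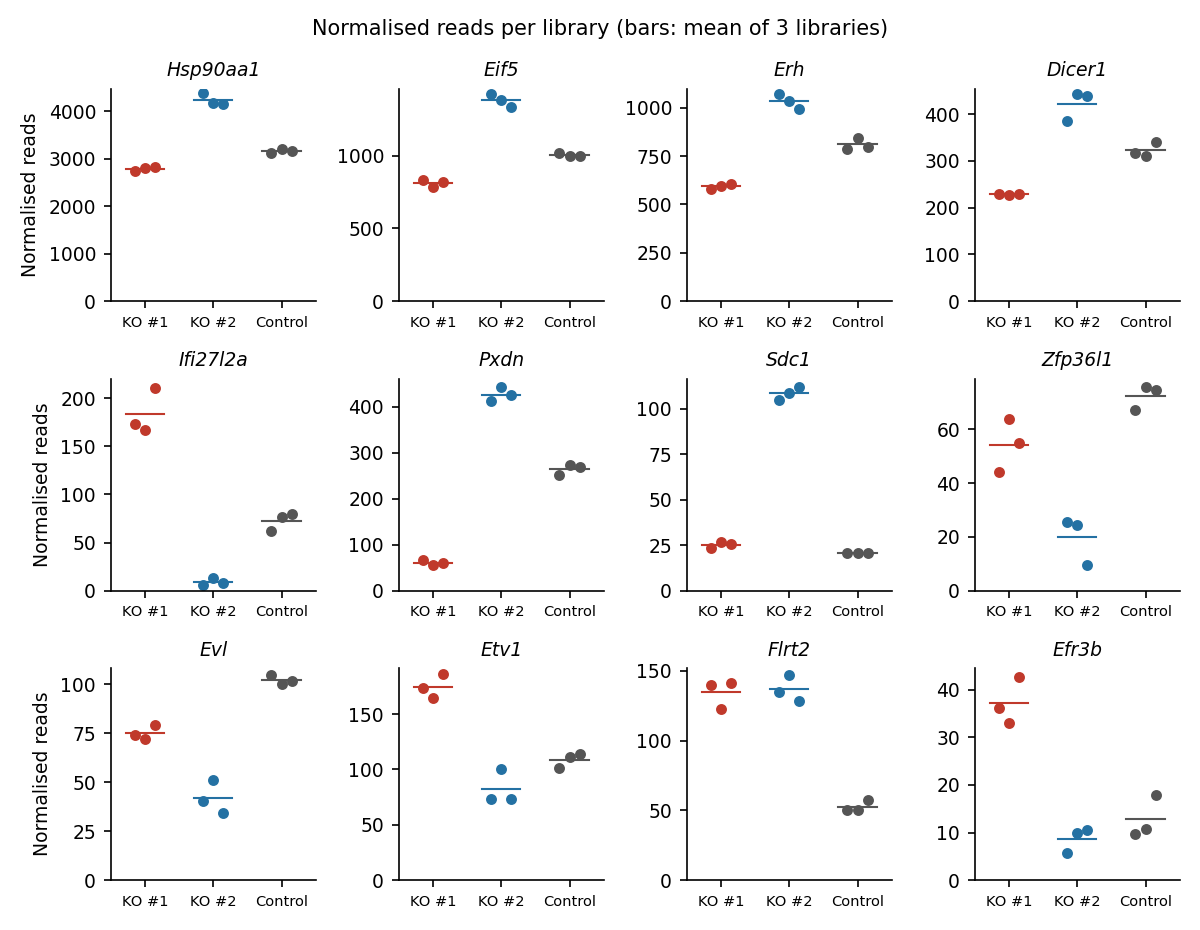
Normalised reads (y axis, linear, from 0) of 12 chromosome 12 genes in each library of KO #1, KO #2 and Control (x axis); points are libraries and bars are means of 3. The top row shows Hsp90aa1, Eif5, Erh and Dicer1, lowest in KO #1 and highest in KO #2. The lower rows show genes that depart from the chromosome, Pxdn in size but with the same order and the others in order. Ifi27l2a, for example, lies at 167 to 210.3 in KO #1, 5.66 to 12.8 in KO #2 and 61.9 to 79.7 in Control.

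The genes that passed the test against the direction of the median were listed after their values were seen. The 11 that rose in KO #1 were Efr3b, Flrt2, Ifi27l2a, Ift43, Etv1, Kif3c, Adssl1, Nampt, Ddx24, Actn1 and Sel1l, with changes from 1.51 to 0.17. Kif3c, a kinesin subunit, had 88.6, 97.8 and 92.5 normalised reads in KO #1, 88.7, 102 and 93.2 in KO #2 and 55.8, 60.9 and 60.8 in Control. Adssl1 had 279, 287 and 266 normalised reads in KO #1, 459, 449.7 and 468 in KO #2 and 215, 185 and 214 in Control, and it rose by 0.44 ± 0.069 in KO #1 and by 1.17 ± 0.069 in KO #2. The 11 that fell in KO #2 were Batf, Ifi27l2a, Zfp36l1, Evl, Gpr65, Hdac9, Etv1, Pdia6, Dnmt3a, Ifi27l1 and Pcnx, with changes of -0.27 for Pcnx to -2.95 for Ifi27l2a, leaving aside Batf, which had almost no reads in the clones. Against KO #2, the 8 that were higher in KO #1 were Ifi27l2a, Efr3b, Zfp36l1, Etv1, Evl, Ifi27l1, Pdia6 and Ddx24, with differences of 4.28 for Ifi27l2a to 0.15 for Ddx24. Gpr65, a proton-sensing receptor, had 88.6, 103 and 86.4 normalised reads in KO #1, 107, 77.6 and 99.1 in KO #2 and 133, 141 and 148 in Control, below Control in both clones.

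Of the members that departed by at least 1, Batf, Rhob, Vash1, Syne2, F730043M19Rik and Lpin1 had means under 20 normalised reads in the higher group, and Cep170b came after the 5 genes taken for the clone comparison. Cep170b, a centrosomal and microtubule protein, had 17.5, 13.0 and 5.08 normalised reads in KO #1, 38.7, 36.3 and 48.4 in KO #2 and 15.7, 24.5 and 18.9 in Control, and it was lower in KO #1 than in KO #2 by -1.85 ± 0.28. Lpin1, a phosphatidate phosphatase of lipid synthesis, had 8.25, 8.98 and 5.08 normalised reads in KO #1, 16.0, 16.7 and 16.5 in KO #2 and 20.1, 18.7 and 19.9 in Control, and fell by 1.32 ± 0.29 in KO #1.

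Batf, an AP-1 family factor of leukocytes, was detected almost only in Control. It had 0 reads in all 3 KO #1 libraries, 0.943, 0.982 and 0 normalised reads in KO #2 and 14.0, 21.6 and 11.5 in Control, and it passed the minimum only through Control. A count of 0 in 1 library allows up to 3 reads. Over the libraries in which Batf had 0 this is 1.37 to 1.65 CPM, a limit that covers counting error only. Rhob, a small GTPase, had 0, 2.99 and 5.08 normalised reads in KO #1, 11.3, 4.91 and 10.6 in KO #2 and 14.8, 15.7 and 13.6 in Control. It fell in KO #1, with 3 libraries below all Control libraries, and its change of -0.73 ± 0.44 in KO #2 did not pass.

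The minimum itself divided genes of nearly equal level. Just inside it stood Syne2, a nuclear envelope spectrin-repeat protein, for which the third highest value was 10.2, and 3110056K07Rik at 11.2. Just outside stood Ccdc85c at 9.60 and Grhl1, an epithelial transcription factor, at 9.82. A value of at least 10 was reached in every one of the 9 libraries by 304 of the 336 members.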

How the data were processed

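DNase-treated RNA was made into 9 stranded mRNA libraries for an Illumina MiSeq, 3 each of KO #1, KO #2 and Control, per the labels' protocols. The submitters' processing notes name edgeR 3.20.1, featureCounts 1.4.6, Cufflinks 2.1.1, TopHat2 2.0.22 and the build mm10, without saying which step each served. The main deposited table gives a signal per gene and library: the authors scaled gene counts by a library-wide factor, TMM by the table's name. All values (100% in each library, within 1e-06) were whole multiples of 1 step per library, which gave back the reads assigned to genes and their total. The deposited FPKM values, scaled by the authors within tables of 2 groups, served as an alternative for each clone against Control, as log2(FPKM + 1). The p-value and q-value columns that the authors deposited were not used. Table columns of per-sample values whose names could not be tied to 1 group or sample (12 columns) were not used.

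From these values, limma-trend (limma 3.58.1, R 4.3.3) was fitted to log2(value + 1) of the 9564 genes with at least 10 in 3 libraries, with all 9 libraries and a group term, and Benjamini-Hochberg adjustment over those genes at 0.05. No edgeR count test is the main result, because the deposited values are normalised; edgeR 4.0.16 and DESeq2 1.42.0 were run on the recovered reads as alternatives. A departure is a gene's log2 change minus the median over the 336 genes. Genes were named for a departure of at least 1 with a mean of at least 20 in the higher group and groups that do not overlap (up to 12 per direction for each clone, 5 between the clones), for level (6 highest, and 6 highest per kb), as the 3 most abundant of each functional list, at the edge of the minimum, or as Traf3, Nfkbia, Hif1a, Lgmn, Galc, Akt1, Dicer1 and Hsp90aa1. A few genes named by these criteria are not reported here. The chromosome, the members, the lists and the tests were chosen with earlier results of these data known. Positions are those of the deposited table (mm10), gene types come from GENCODE M21 (314 of 336 matched by symbol) and promoters from RefSeq's GRCm38.p6 table. The procedure was tested on simulated data. Libraries of different groups that share a replicate number had residual correlations between -0.017 and 0.028, and no label ties the numbers to a shared day, so libraries were not paired.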

Additional observations from a re-analysis of the deposited data

Results flagged for a closer look

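The clones moved in opposite directions from Control over the whole chromosome: every KO #1 library had a member median below 0 and every KO #2 library one above 0, and the median difference between KO #1 and KO #2 was -0.56974 on the log2 scale. This difference over the members was not tested, since the chromosome was chosen on it. Chromosome copies and the history of the clones were not measured, so mutation and clone cannot be told apart.

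Among the genes named for a departure, 4 moved in opposite directions from Control in the clones, with calls against Control in both and between them, in limma's test. Pxdn and Fam49a moved with the chromosome but further, with KO #1 minus KO #2 at -2.79 for Pxdn and -2.6012 for Fam49a. Ifi27l2a and Etv1 moved against the chromosome in both clones, with KO #1 minus KO #2 at 4.276 for Ifi27l2a and 1.0898 for Etv1. In each of the 4, the 3 libraries of KO #1 and the 3 of KO #2 lay on opposite sides of all 3 Control libraries. Groups that do not overlap were part of the rule that named these genes, so this separation is partly built in. The share of all tested genes that separate in this way was not counted.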

How the results depend on the processing

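The member median kept its direction under the 21 other settings that gave one for each clone against Control and the 20 for KO #1 against KO #2. Some of these settings cannot move it, or the change of a single gene, and only affect the test. They are the replicate block, the fit of only the groups compared, the fit without a minimum and the fits without a library of the group not compared. The median for KO #2 against Control was 0.28491 with limma-voom and 0.26182 to 0.28794 when 1 library was left out, for KO #1 against Control it was between -0.29 and -0.26, and for KO #1 against KO #2 between -0.58 and -0.56. The number of members called ran from 113 to 165 for KO #1 against Control, from 131 to 173 for KO #2 against Control and from 221 to 265 for KO #1 against KO #2, with DESeq2 giving the lowest (105 lower and 8 higher, 9 lower and 122 higher, 214 lower and 7 higher) and edgeR's quasi-likelihood test on the recovered reads giving 158, 172 and 265. With a replicate block 159, 163 and 264 members were called, and no count moved by more than 1.5 times; the numbers are not a pairing. Over 22 settings, of 468 recomputed values of single named genes, 456 kept their direction and their side of the threshold and 0 reversed. The other 12 were Ift43 in KO #1, which lost its call in 9 (0.50 to 0.84), and Nova1 in KO #2, which gained one in 3 (-0.84): with the replicate block, with only the groups compared, and without the third KO #1 library. FPKM values were not run for KO #1 against KO #2, since their columns could not be tied to a clone. The change of Nova1 in KO #2 was smaller without the third KO #2 library (-0.50). On log2(FPKM + 1) the change was 0.96 for Efr3b in KO #1 and -0.29 for Nova1 in KO #2. This is another scale, on which the added 1 weighs differently, so these sizes cannot be set against the main ones. With edgeR and DESeq2 on the recovered reads the changes were 1.56 and 1.56 for Efr3b and -0.76 and -0.81 for Nova1. The share of members called was smallest among the least abundant; the part of depth in this was not tested.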
